A study of Danio rerio with 19 samples.

Results

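The miR-17-92 group comprised the known miRNA probes of the array that are named for zebrafish miR-17a, miR-18, miR-19, miR-20, miR-92, miR-93 or miR-363. A search of the probe names found 12 such probes among the 546 probes for known miRNAs and the 7604 probes in all. They cover both arms of 6 hairpins (miR-18c, miR-19c, miR-20b, miR-363, miR-92b and miR-93), and each probe was spotted 2 times. In the probe names, l marks the left (5′) arm of the hairpin and r the right (3′) arm. miR-17a, miR-18a, miR-18b, miR-19a, miR-19b, miR-19d, miR-20a and miR-92a were not analysed here.

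The series compared small RNA of zebrafish that express oncogenic HRAS V12 with small RNA of AB wild-type fish on 19 two-color arrays. In kita:Ras fish, Gal4 placed under the kita promoter switches on UAS:eGFP-HRASV12 in melanocytes, and the study reports its GFP in the notochord as well. In zic:Ras fish, Gal4 under the zic4 promoter switches on the same transgene in the brain. Both lines carry UAS:mCherry as well, and their AB controls carry no transgene. HS-Ras fish carry hsp70:HRAS and were sampled at 3 days post fertilization (dpf), 6 h after they had been kept at 37 °C for 30 min to induce the transgene. Their AB controls were heat-shocked in the same way. There were 4 arrays of kita:Ras at 3 dpf and 3 arrays each of kita:Ras at 7 dpf, kita:Ras at 14 dpf, zic:Ras at 3 dpf, HS-Ras at 3 dpf and adult melanoma. A larval sample was a pool of 15 whole larvae, or of 5 at 14 dpf, and pools of different replicates had different parents. An adult sample was the fin of 1 fish, with tumor tissue in kita:Ras and without in AB. The labels and methods call the AB tissue fin, while a table heading of the study calls it skin.

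On every array the green channel (Hy3) held the Ras RNA and the red channel (Hy5) held the control RNA. No dyes were swapped, so a dye bias of a probe remains in its ratio. The arrays lay on 3 slides: slide 1 held kita:Ras replicates 1 and 2 of 3 dpf and all arrays of 7 and 14 dpf, slide 2 held replicates 3 and 4 of 3 dpf and the adult arrays, and slide 3 held zic:Ras and HS-Ras. Slide 2 was the dimmest, with between 49.0% and 60.1% of the spots of known probes well above background in the Ras channel, against 76.8% to 89.5% on slide 1 and 74.5% to 82.1% on slide 3. The 3 or 4 arrays of a group limit the precision of its mean. The whole larva or fin was measured, so that fewer cells of a type and less RNA per cell cannot be told apart.

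miRNAs are short RNAs that guide Argonaute proteins to messenger RNAs, mainly by pairing of the seed, bases 2 to 8 of the miRNA. A hairpin is cut into a duplex from which 1 strand, the guide, is usually kept, while the passenger strand is usually discarded. The mammalian miR-17-92 cluster, known as oncomir-1, is a transcriptional target of Myc and holds 4 seed families (miR-17, miR-18, miR-19 and miR-92). The miR-17 family targets cell cycle and apoptosis genes such as p21 and Bim. Mammals have the paralogous clusters miR-106a-363 and miR-106b-25, and in vertebrate embryos the group is known for supporting growth of the heart, lung, skeleton and B cells.

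In the RefSeq gene table of the zebrafish assembly GRCz12tu, mir18c, mir19c, mir20b and mir363 lie within 2 kb of each other on chromosome 14, a gene content that resembles the mammalian miR-106a-363 cluster. The genes mir93, mir25 and mir19d lie together elsewhere on chromosome 14, which resembles miR-106b-25. On chromosome 16, mir92b has no other miRNA gene within 2 kb. The array files name an older assembly, and no coordinates are given for that reason.

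The guide arms are shown first because the seed families are read from them. Each sequence is the reverse complement of the first 22 bases of the 60-base probe, written as RNA from 5′ to 3′, with the seed in capitals. miR-25_r is not in the group but carries the miR-19 seed on this array and serves as a comparison.
miR-20b_l: cAAAGUGCucacagugcaggua
miR-93_l: aAAAGUGCuguuugugcaggua
miR-18c_l: uAAGGUGCaucuuguguaguua
miR-19c_r: uGUGCAAAuccaugcaaaacuc
miR-25_r: uGUGCAAAcccaugcaaaacug
miR-363_r: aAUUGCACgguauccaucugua
miR-92b_r: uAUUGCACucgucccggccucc

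miR-20b_l and miR-93_l share the miR-17 seed and have the same base at 17 of 22 positions. miR-363_r and miR-92b_r share the miR-92 seed but agree at only 10 of 22 positions. miR-18c_l carries the miR-18 seed and has the same base as miR-93_l at 15 positions. miR-19c_r and the probe named miR-25_r agree at 20 of 22 positions, and the annotated neighbor of mir25 is mir19d. Binding of one miRNA to the probe of another was not tested. These 4 seeds occurred in 7 known probes in all, the 6 guide arms and miR-25_r.

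The opposite arms of the same hairpins carry other seeds. The following are shown because they passed the test in a Ras comparison, and neither holds any of the 4 family seeds at bases 2 to 8.
miR-93_r: aCUGUAGGagcagcacuucaca
miR-19c_l: uGAGUUUUgcaggauugcaucc

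The guide arms were measured far more steadily than the passenger arms. miR-20b_l, miR-93_l, miR-19c_r and miR-92b_r were well above background in both channels on all 19 arrays. miR-18c_l was above background in the Ras channel on 18 arrays, and miR-363_r on 16 in the Ras and 18 in the control channel. All arrays on which a guide arm was dim were of adult fin. Of the passenger arms, miR-19c_l was above background on 4 (Ras) and 3 (control) of 19 arrays, miR-18c_r on 10 and 9, and miR-363_l on 11 and 10. miR-20b_r, miR-92b_l and miR-93_r were above background on 15 to 19 arrays in each channel.

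The first question was whether oncogenic Ras changed the abundance of these miRNAs in larvae. The guide arms stayed close to a ratio of 1 in all 5 larval comparisons. Their 96 values on the 16 larval arrays ranged from -0.51 to 0.32 on the log2 scale (Ras over control), with a median of 0.03. Of these values, 5 lay beyond a 1.2-fold difference and 1 lay beyond 0.5 on the log2 scale. The 96 values of the passenger arms ranged from -2.02 to 1.15, and 53 lay beyond 1.2-fold.

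**Figure D1:**
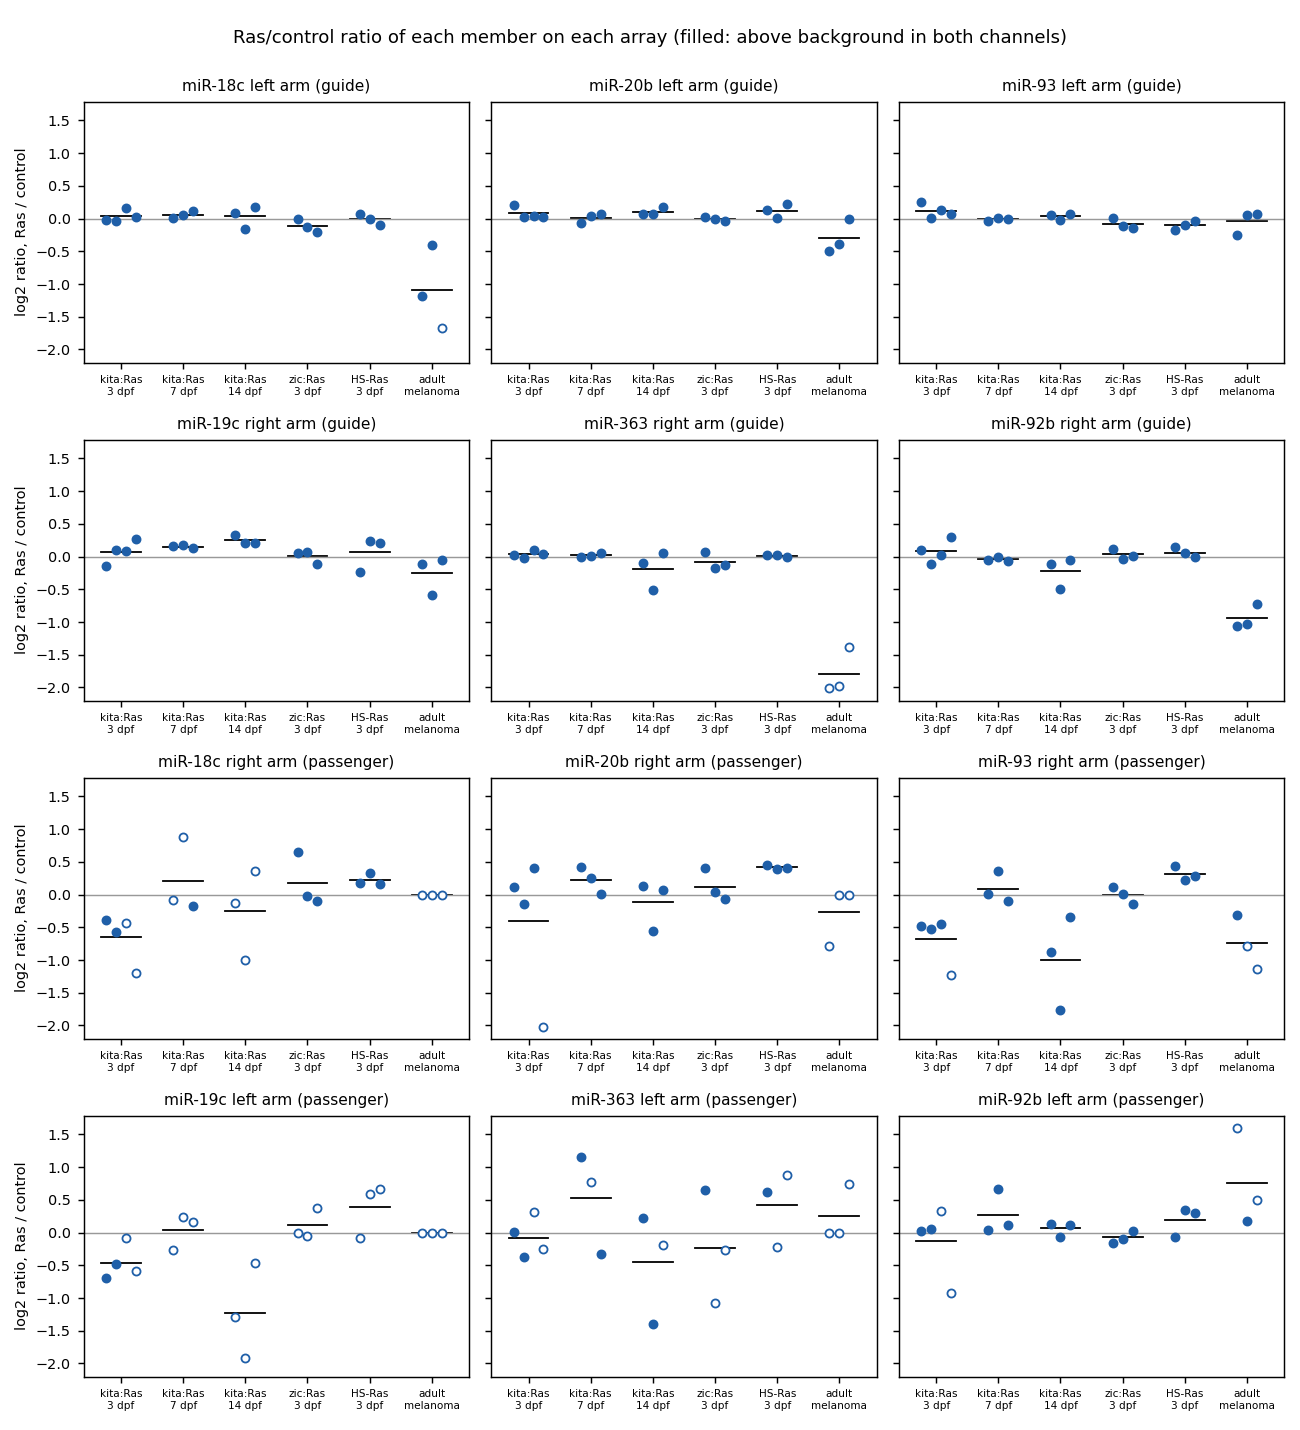
Log2 ratio of Ras over control RNA of each of the 12 probes (panels) on each of the 19 arrays, by group on the horizontal axis. Points are arrays, filled where the probe was well above background in both channels, and bars are group means. The larval points of the 6 guide arms lie between -0.51 and 0.32, and the adult points of miR-363_r lie between -2.01 and -1.39.

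In kita:Ras at 3 dpf, 0 of the 9 group probes tested were called. A call needed an adjusted p below 0.01 by limma over all known probes tested and a linear fold above 1.2, and 0.781% of the 384 known probes tested were called in this comparison. At an unadjusted p below 0.05, 1 of the 9 passed, against 22.4% of all known probes. That probe was miR-93_r, the passenger arm of miR-93, with log2 ratios of -0.48, -0.53, -0.45 and -1.22. All 4 arrays were below 0, and the fitted mean was -0.67 (SE 0.19, limma adjusted p = 0.0498). On the array of -1.22 (replicate 4, on slide 2) the probe was not above background in both channels, and miR-20b_r had its lowest ratio, -2.02, on the same array.

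The guide arms showed no such offset at 3 dpf. The miR-17 family guide miR-20b_l had ratios of 0.21, 0.03, 0.05 and 0.03 (mean 0.08, 95% interval -0.09 to 0.24), and its paralog miR-93_l had 0.26, 0.00, 0.13 and 0.06 (mean 0.11, interval -0.05 to 0.28). miR-18c_l stood at -0.03, -0.03, 0.16 and 0.03. miR-19c_r stood at -0.15, 0.10, 0.08 and 0.27. miR-20b_l and miR-93_l were above 0 on all 4 arrays, but the interval of each guide arm included 0. The intervals of the 6 guide arms lay between -0.16 and 0.28, and larger changes lie outside them.

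In zic:Ras at 3 dpf, with the oncogene in the brain, 0 of 11 group probes were called (1.1% of known probes tested), and 0 had an unadjusted p below 0.05 by limma (15.4% of known probes). miR-18c_l was the guide arm farthest from 0, with -0.01, -0.13 and -0.20 (mean -0.11, interval -0.32 to 0.09). In HS-Ras, where all tissues can express the oncogene, 0 of 11 were called (1.77% of 452), and 0 had an unadjusted p below 0.05 (17.7%). The guide arms of HS-Ras had means between -0.10 and 0.12. The passenger arms tested there all had means above 0, from 0.19 to 0.43, and the widest of their intervals ran from -0.36 to 1.22. The F test between kita:Ras, zic:Ras and HS-Ras at 3 dpf called 0 of 9 group probes (0.266% of 376 known probes). miR-93_r had the lowest adjusted p of the 9 in that test (0.1729) and the only unadjusted p below 0.05 (0.0120, against 14.1% of known probes below that threshold).

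At 7 dpf, 0 of 11 group probes were called in kita:Ras (2.02% of 496 known probes), and 0 had an unadjusted p below 0.05 by limma (11.5%). The guide arms were tightest at this age. miR-363_r had ratios of -0.01, 0.01 and 0.05, and miR-92b_r had -0.05, -0.01 and -0.07. miR-19c_r was above 0 on all 3 arrays, at 0.16, 0.17 and 0.13 (mean 0.15, SE 0.11, interval -0.09 to 0.39). For each guide arm the 3 arrays lay within 1.2-fold of each other.

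At 14 dpf, 2 of the 11 group probes tested were called in kita:Ras, both lower and both passenger arms. In the same comparison 20% of the 500 known probes were called lower and 1.4% higher, so the count in the group is close to that of all known probes. miR-19c_l, the passenger arm of miR-19c, had log2 ratios of -1.29, -1.91 and -0.47. All 3 arrays were below 0 (mean -1.23, SE 0.23, limma adjusted p = 0.0017), but the probe was above background on 1 of 3 arrays in each channel. miR-93_r had ratios of -0.88, -1.77 and -0.34 (mean -0.99, SE 0.22, limma adjusted p = 0.0040) and was also below 0 on all 3.

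Both calls depended on single arrays and on the estimate of the spread. Without replicate 1, miR-19c_l had a limma adjusted p of 0.0121 and miR-93_r one of 0.0163, and without replicate 2 miR-93_r was at -0.61 with 0.0668. When the 14 dpf arrays were fitted alone, the adjusted p was 0.1482 for miR-19c_l and 0.1646 for miR-93_r, at the same means. With normexp background correction and loess, miR-19c_l was at -0.22 (SE 0.078, limma adjusted p = 0.0372) and was not called. Markers of other tissues moved in the same comparison. There, 10 of 22 brain, 9 of 20 muscle and 3 of 6 skin probes were called lower, against 20% of all known probes. Of the miR-204 probes, which mark pigment cells, 3 of 6 were called higher. The 546 known probes hold 411 distinct sequences, so such counts are of probes and can count 1 sequence more than once. The summed muscle signal, in log2 units scaled within each array, overlapped (3.87 to 3.96 in Ras RNA, 3.87 to 4.09 in control RNA). Erythroid signal was higher in Ras RNA (0.58 to 0.85 against 0.01 to 0.43). Skin signal was lower (1.11 to 1.30 against 1.34 to 1.47). Each channel was scaled on its own, which can leave an offset between the 2 RNAs, and skin was lower on this scale in zic:Ras and HS-Ras too. The part of these tissues in the 2 calls was not tested.

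Among the guide arms at 14 dpf, 0 of 6 were called and 1 had an unadjusted p below 0.05 by limma (39.8% of known probes). That arm was miR-19c_r, with ratios of 0.32, 0.21 and 0.20, all above 0 (mean 0.25, SE 0.11, limma adjusted p = 0.1168). Its passenger arm, miR-19c_l, was called lower on the same arrays. Replicate 2 was the lowest of the 3 for every group probe except miR-19c_r. The gap was wide for miR-363_r (-0.11, -0.51 and 0.05) and for miR-92b_r (-0.11, -0.50 and -0.05), the pair with the miR-92 seed. The miR-17 family guides differed little between replicates, with 0.07, 0.07 and 0.17 for miR-20b_l and 0.05, -0.02 and 0.07 for miR-93_l.

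The F test of the kita:Ras ratio across 3, 7 and 14 dpf called 0 of the 9 group probes tested (1.05% of 381 known probes). miR-93_r came closest, with an unadjusted p of 0.0103 and a limma adjusted p of 0.0984, and was the only one of the 9 with an unadjusted p below 0.05 (21.3% of known probes). Its group means were -0.67 at 3 dpf, 0.09 at 7 dpf and -0.99 at 14 dpf. For the guide arms the adjusted p was 0.4531 or higher.

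In adult melanoma 1 group probe was called, and its ratio is only a bound. All guide arms except miR-93_l had ratios below 0 on all 3 arrays, as did miR-93_r, and only miR-363_r passed the test. Among the guides the means were lowest for miR-363_r and miR-92b_r, which carry the miR-92 seed, and for miR-18c_l. miR-363_r had log2 ratios of -2.01, -1.98 and -1.39 (mean -1.79, SE 0.29, interval -2.48 to -1.10, limma adjusted p = 0.0066). It was the only group probe called of 8 tested, where 8.38% of 346 known probes were called and 4.34% were called lower. miR-363_r was well above background on 0 of 3 arrays in the tumor RNA and on 2 of 3 in the control RNA, so the ratio is only a bound, at least 1.14-fold lower in background-corrected and loess-normalized signals. Without replicate 1 or 2 it was no longer bright enough to be tested, and without replicate 3 its limma adjusted p was 0.0408. With normexp and loess it was at -0.25 (limma adjusted p = 0.0805).

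miR-92b_r, bright on all 3 adult arrays, had ratios of -1.06, -1.03 and -0.72 (mean -0.94, SE 0.27, interval -1.59 to -0.29), and its limma adjusted p of 0.0342 did not pass. miR-18c_l had -1.18, -0.40 and -1.68 (mean -1.09, SE 0.34, limma adjusted p = 0.0391) and was above background in the tumor RNA on 2 of 3 arrays. The miR-17 guides lay nearer 0. miR-20b_l had -0.50, -0.39 and -0.01 (mean -0.30, interval -0.96 to 0.36), and miR-93_l had -0.24, 0.06 and 0.07 (mean -0.04, interval -0.69 to 0.61). miR-19c_r had -0.11, -0.59 and -0.05 (mean -0.25, interval -0.93 to 0.42), which overlaps both. Of the 8 group probes tested, 4 had an unadjusted p below 0.05 by limma, against 52.0% of all known probes. The median of all known probes tested was -0.18, and the 6 guide arms had a median of -0.62. Differences between the families were not tested.

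The passenger arms gave little in adult fin, where miR-18c_r and miR-19c_l were set to a log2 ratio of 0 on all 3 arrays. Feature Extraction gives that value to many spots that are above background in neither channel. miR-20b_r and miR-363_l had it on 2 of 3 arrays, and these 4 arms were not tested. miR-92b_l had 1.60, 0.17 and 0.50, opposite in sign to its guide (mean 0.76, SE 0.36, limma adjusted p = 0.1255). miR-93_r had -0.32, -0.78 and -1.14 (mean -0.75, SE 0.30, limma adjusted p = 0.0809). The difference between the arms of miR-92b was not tested.

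The marker miRNAs of other tissues also differed between the fins with and without tumor. For miR-204, a pigment cell marker with 6 probes, 3 of 6 were called higher (median log2 ratio 2.69), and its summed signal ranged from 2.91 to 3.52 in tumor RNA and from -1.08 to 0.06 in control RNA on the log2 scale relative to the 75th percentile of the array. The 20 muscle probes (miR-1, miR-133, miR-206, miR-499) summed to between 3.87 and 4.41 in tumor RNA and between 5.25 and 5.61 in control RNA, with 2 called lower of 17 tested. The 6 skin probes (miR-203, miR-205) summed to between -0.40 and 0.52 against 1.86 to 2.01, with 0 called of 5 tested by limma and all 5 at an unadjusted p below 0.05. On this scale tumor RNA held more pigment cell and less skin and muscle signal on every array. Each channel was scaled on its own, however, so the levels of the 2 RNAs can differ where the ratio does not. In zic:Ras replicate 2, miR-20b_l had a log2 ratio of -0.005 but levels of 1.81 in Ras and 2.16 in control RNA. On this scale muscle was also lower in HS-Ras (4.30 to 4.46 against 4.79 to 4.92). Skin was lower in zic:Ras (1.17 to 1.22 against 1.56 to 1.66). A lower summed level in Ras RNA is thus no sign of less RNA by itself. By the log2 ratio in adult melanoma, all 17 muscle and all 5 skin probes tested had means below 0 (medians -1.09 and -1.52). The 22 brain probes (miR-9, miR-124) had a median of -1.17 with 1 called lower of 16 tested, and the 8 white blood cell probes a median of -1.27 with 1 called lower of 6. The parts that these tissues had in the ratios of miR-363_r, miR-18c_l and miR-92b_r were not tested.

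The second question was how the group changed with age in the control larvae. For this the control signal of the 10 kita arrays was expressed in log2 units relative to the 75th percentile of each array, taken over known probes above background on all of them, and ages were compared by limma with the slide as a block. Changes from 3 dpf therefore rest on the 2 slide 1 arrays of that age, and the slide 2 arrays enter only the scaling and the spread. Without the block, over all kita arrays, the change from 3 to 14 dpf was -0.43 for miR-19c_r and -0.18 for miR-93_l. The control signal and the ratio come from the same control RNA and are not independent of each other. From 3 to 7 dpf, 7 of the 10 group probes tested were called lower and 0 higher, where 27.5% of 488 known probes were called lower and 15.6% higher. From 3 to 14 dpf, 5 of 10 were called lower and 0 higher, where 18.4% of 495 were called lower and 26.9% higher.

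miR-18c_l had the largest change of the guide arms from 3 to 14 dpf. Its control signal at 3 dpf was 0.48 and 0.44 on slide 1 and 1.13 and 0.78 on slide 2. It was -0.71, -0.77 and -0.75 at 7 dpf and -1.61, -1.41 and -1.59 at 14 dpf. The 3 ages did not overlap. The change was -1.20 (SE 0.14) from 3 to 7 dpf, -0.79 (SE 0.13, limma adjusted p = 0.0015) from 7 to 14 dpf and -2.0 (SE 0.14) from 3 to 14 dpf, and it was the only group probe called lower between 7 and 14 dpf.

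miR-363_r, from the same annotated cluster as miR-18c, declined by a similar amount. Its signal at 3 dpf was -0.86 and -0.91 on slide 1 and -0.65 and -0.72 on slide 2, then -2.19, -2.23 and -2.15 at 7 dpf and -2.81, -2.43 and -2.62 at 14 dpf. The ages did not overlap. It fell by 1.31 (SE 0.14) from 3 to 7 dpf and by 1.74 (SE 0.14) from 3 to 14 dpf, while the change of -0.43 from 7 to 14 dpf had a limma adjusted p of 0.0218.

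miR-20b_l and miR-19c_r, the other members of that cluster, declined less and mostly before 7 dpf. miR-20b_l was at 1.65, 1.74, 1.67 and 1.34 at 3 dpf, 0.98, 0.99 and 0.96 at 7 dpf and 0.64, 0.88 and 0.84 at 14 dpf. Its change from 3 to 14 dpf was -0.91 (SE 0.14, limma adjusted p = 7.5e-04), and -0.72 (SE 0.14) to 7 dpf. miR-19c_r was at 3.21, 3.06, 2.75 and 3.00 at 3 dpf, 2.56, 2.50 and 2.59 at 7 dpf and 2.52, 2.59 and 2.60 at 14 dpf. It fell by 0.58 (SE 0.13) from 3 to 7 dpf and differed by 0.02 (interval -0.24 to 0.28) from 7 to 14 dpf. The 4 guides of this cluster were thus all called lower in this fit, with changes from -0.56 to -2.0 between 3 and 14 dpf. For miR-19c_r this call was lost in 12 of 26 alternatives, across which its change ranged from -0.75 to -0.13. miR-18c_l lost it in 1 of 26, and miR-20b_l and miR-363_r kept it in all.

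**Figure D2:**
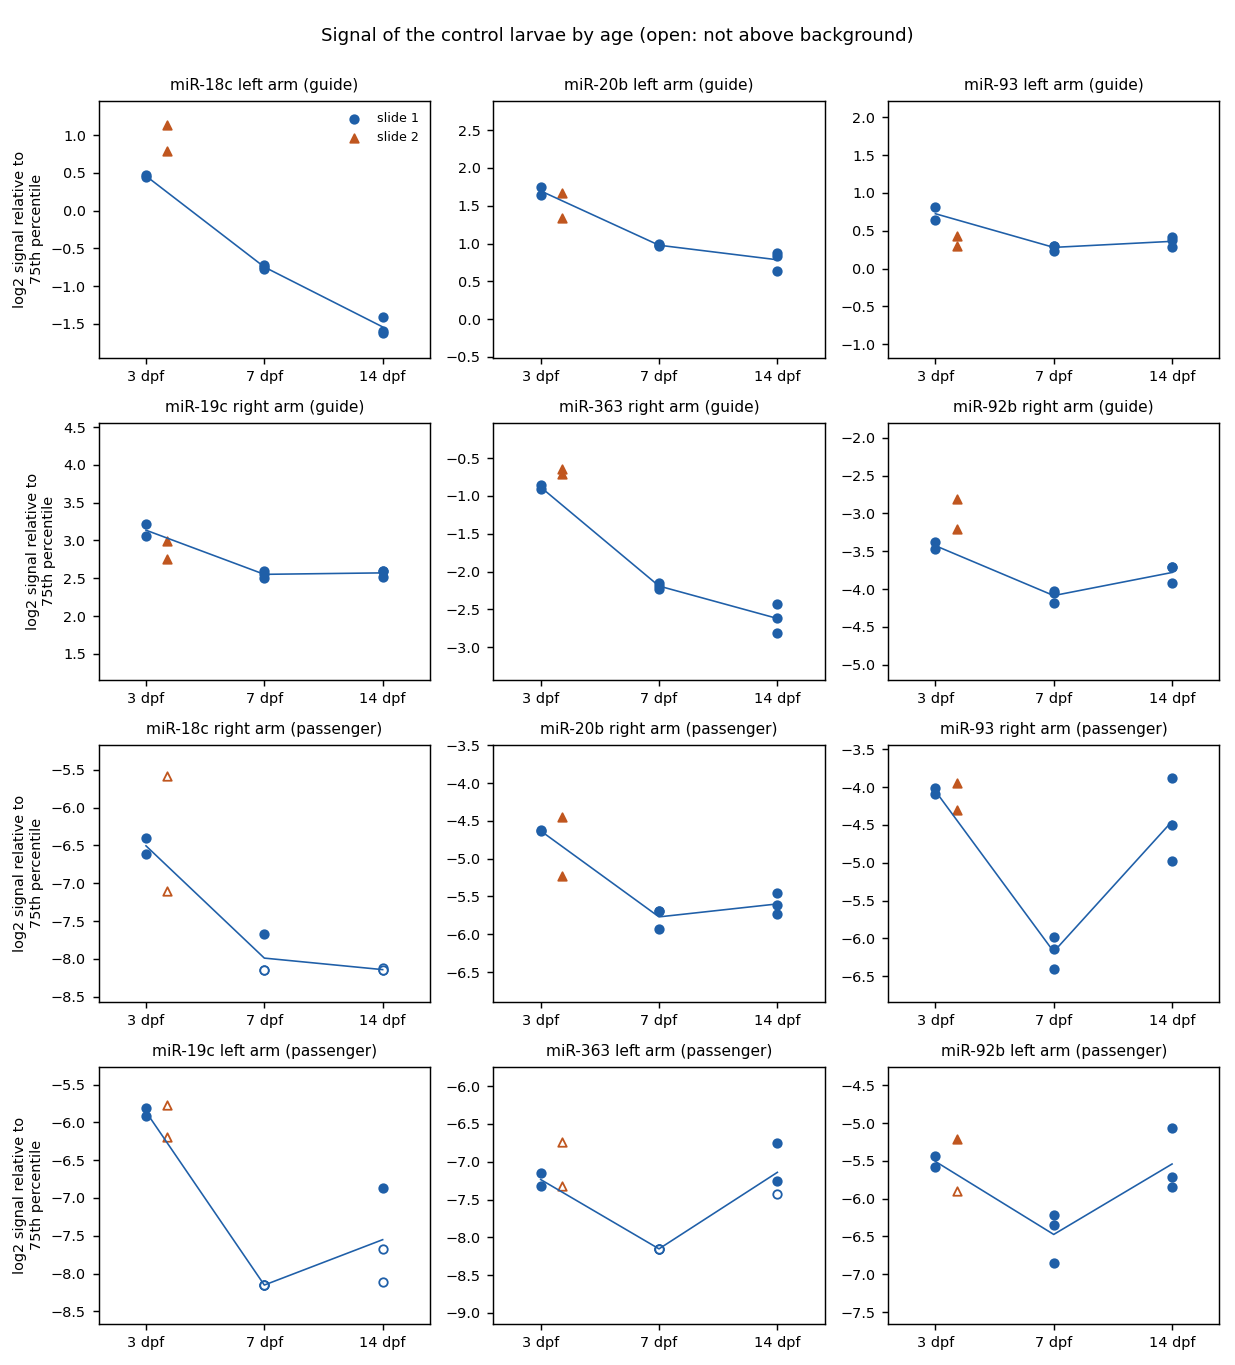
Control signal of each of the 12 probes (panels) by age in dpf, in log2 units relative to the 75th percentile of the array. Circles are slide 1 and triangles slide 2, open points are not above background, lines join the slide 1 means, and all panels span the same height on their own levels. For miR-18c_l the signals of 3, 7 and 14 dpf do not overlap, and miR-93_r is lowest at 7 dpf.

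From 3 to 14 dpf the guides outside that cluster changed by less than its 4 guides in this fit, but not in every setting. Without the block, over all kita arrays, miR-92b_r changed by -0.56 and miR-93_l by -0.18, beside -0.43 for miR-19c_r. In the kita:Ras RNA of the same arrays, miR-92b_r changed by -0.60 and miR-93_l by -0.49, beside -0.32 for miR-19c_r. miR-93_l was at 0.64, 0.81, 0.29 and 0.43 at 3 dpf, 0.30, 0.23 and 0.30 at 7 dpf and 0.42, 0.38 and 0.28 at 14 dpf. Its slide 2 values at 3 dpf overlap the later ages, and its changes of -0.45 to 7 dpf (limma adjusted p = 0.0138) and -0.37 to 14 dpf (adjusted p = 0.0320) did not pass. miR-92b_r was at -3.47, -3.38, -2.81 and -3.21 at 3 dpf, -4.05, -4.19 and -4.02 at 7 dpf and -3.92, -3.71 and -3.71 at 14 dpf. It fell by 0.66 (SE 0.16, limma adjusted p = 0.0074) from 3 to 7 dpf, while its change of -0.35 from 3 to 14 dpf had an adjusted p of 0.0855. With quantile normalization its change from 3 to 7 dpf turned to 0.17. The miR-25_r probe with the miR-19 seed was called lower both at 7 dpf (-0.75) and at 14 dpf (-0.74), beside -0.58 and -0.56 for miR-19c_r. Its slide 2 levels at 3 dpf, 2.63 and 2.79, overlap those of 7 dpf (2.82, 2.68 and 2.85) and 14 dpf (2.75, 2.81 and 2.83), below 3.55 and 3.52 on slide 1.

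miR-93_r, a passenger arm, did not follow its guide after 7 dpf. It was at -4.01, -4.09, -4.31 and -3.94 at 3 dpf, -6.14, -6.40 and -5.98 at 7 dpf and -4.98, -3.87 and -4.50 at 14 dpf. It fell by 2.13 (SE 0.30) from 3 to 7 dpf and rose by 1.73 (SE 0.27, limma adjusted p = 0.0014) from 7 to 14 dpf, while miR-93_l changed by 0.08 over the second interval. In the control RNA 8 of 20 muscle probes were called lower from 3 to 7 dpf, against 27.5% of all known probes. From 7 to 14 dpf 8 of 20 were called higher, against 23.3%. Their summed level was 4.35 to 4.93 at 3 dpf, 3.94 to 4.00 at 7 dpf and 3.87 to 4.09 at 14 dpf, so the later ages overlapped. For skin probes the counts were 3 of 6 and 3 of 6. Their summed level was 1.49 to 1.67 at 3 dpf, 0.98 to 1.10 at 7 dpf and 1.34 to 1.47 at 14 dpf. The part of these tissues was not tested. miR-363_l was at the floor of -8.15 on all 3 arrays of 7 dpf and at -7.25, -6.75 and -7.42 at 14 dpf, which met the call. Its difference of 1.01 is only a bound, since the values of 7 dpf are the floor and have no spread. That call was lost without replicate 1 or 2 of 3 dpf, 1 or 3 of 7 dpf or 1 of 14 dpf, where the change was between 0.67 and 0.72. From 7 to 14 dpf, 2 of 10 group probes were called higher and 1 lower, where 23.3% of 502 known probes were called higher and 8.37% lower.

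miR-20b_r behaved like its guide, at -4.63, -4.64, -5.23 and -4.45 at 3 dpf, -5.69, -5.93 and -5.69 at 7 dpf and -5.62, -5.45 and -5.73 at 14 dpf. It was called lower at both later ages (-1.14, SE 0.22, and -0.97, SE 0.22). The call at 7 dpf was lost in 6 of 26 alternatives, with changes from -1.24 to -0.35. That at 14 dpf was lost in 11 of 26, with changes from -1.16 to -0.42. miR-92b_l changed by -0.97 from 3 to 7 dpf (limma adjusted p = 0.0254) and by -0.03 from 3 to 14 dpf. miR-18c_r and miR-19c_l were above background on too few arrays to be tested with both slides.

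Slide 1 alone holds all 3 ages. There the 3 arrays of 7 dpf lay below both arrays of 3 dpf for all 10 group probes tested with both slides. This held for 49.4% of the 488 known probes so tested. It also held for the untested miR-18c_r and miR-19c_l, but miR-19c_l and miR-363_l were at the floor on all 3 arrays of 7 dpf. At 14 dpf all 6 guide arms and, of the passenger arms so tested, only miR-20b_r lay below 3 dpf. This held for 33.7% of the 495 known probes so tested. The untested miR-18c_r and miR-19c_l lay below 3 dpf as well. A fit of these 8 arrays called 11 group probes lower at 7 dpf and 9 at 14 dpf. That fit called 52.0% of 513 and 48.6% of 512 known probes in either direction, with 81 and 125 probes called higher. The median change of all known probes was -0.12 from 3 to 7 dpf and 0.14 from 3 to 14 dpf on this scale, and that of the guide arms was -0.69 and -0.74. With both slides, leaving out 1 array changed the counts. They were 3 for both intervals without replicate 1 or 2 of 3 dpf, and 11 and 8 without replicate 3 or 4. Of all known probes tested, 27.3% to 32.3% were called in either direction without replicate 1 or 2, and 48.4% to 56.1% without 3 or 4. Without 1 array of 7 or 14 dpf the group counts were 4 to 7 and 3 to 5. In these fits 33.5% to 41.8% and 37.3% to 46.5% of all known probes tested were called in either direction.

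The controls of zic:Ras, which are also AB larvae of 3 dpf but lie on slide 3, did not have the same levels as those of kita:Ras. On 1 scale over all arrays, miR-18c_l averaged -1.67 in the zic:Ras controls and 0.51 in the kita:Ras controls of 3 dpf, a difference of -2.19 at the same age. This is as large as its change from 3 to 14 dpf. miR-363_r differed by -0.19 and miR-19c_r by -0.50, while miR-20b_l, miR-93_l and miR-92b_r were higher in the zic:Ras controls by 0.69, 0.73 and 0.66. Of 347 known probes above background on all 7 arrays, 26.2% differed by over 1 log2 unit. Slide, hybridization and larvae cannot be told apart in this difference, and the age changes were compared only within the kita arrays. With the zic:Ras controls added and no slide block, 3 group probes were called lower at 7 dpf and 3 at 14 dpf. Of all known probes tested, 23.1% and 23.5% were called in either direction. miR-18c_l was called at neither age (-0.46 with a limma adjusted p of 0.5883 and -1.27 with 0.1119).

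The Ras RNA of the same arrays changed with age in the same direction for the guides called there. In kita:Ras larvae miR-18c_l changed by -1.25 (SE 0.15) from 3 to 7 dpf and by -1.96 (SE 0.15) from 3 to 14 dpf, and miR-363_r by -1.43 (SE 0.15) and -1.96 (SE 0.15). miR-20b_l changed by -0.96 and -0.95, and miR-93_l by -0.73 and -0.49. All 8 of these changes were called by limma in the Ras RNA, whereas those of miR-93_l were not in the control RNA. miR-92b_r changed by -0.83 and -0.60, both called in the Ras RNA, while in the control RNA only its change to 7 dpf was called. The reverse held for miR-19c_r (-0.54 and -0.32 in Ras RNA, limma adjusted p = 0.0175 and 0.117) and miR-20b_r (-1.03 and -1.09, limma adjusted p = 0.05002 and 0.0405), which were called only in the control RNA. The difference between the 2 RNAs is what the ratio measures, and its F test across the ages called 0 group probes. For miR-93_r the rise from 7 to 14 dpf was 0.75 in Ras RNA (limma adjusted p = 0.0301), beside 1.73 in control RNA.

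**Figure D3:**
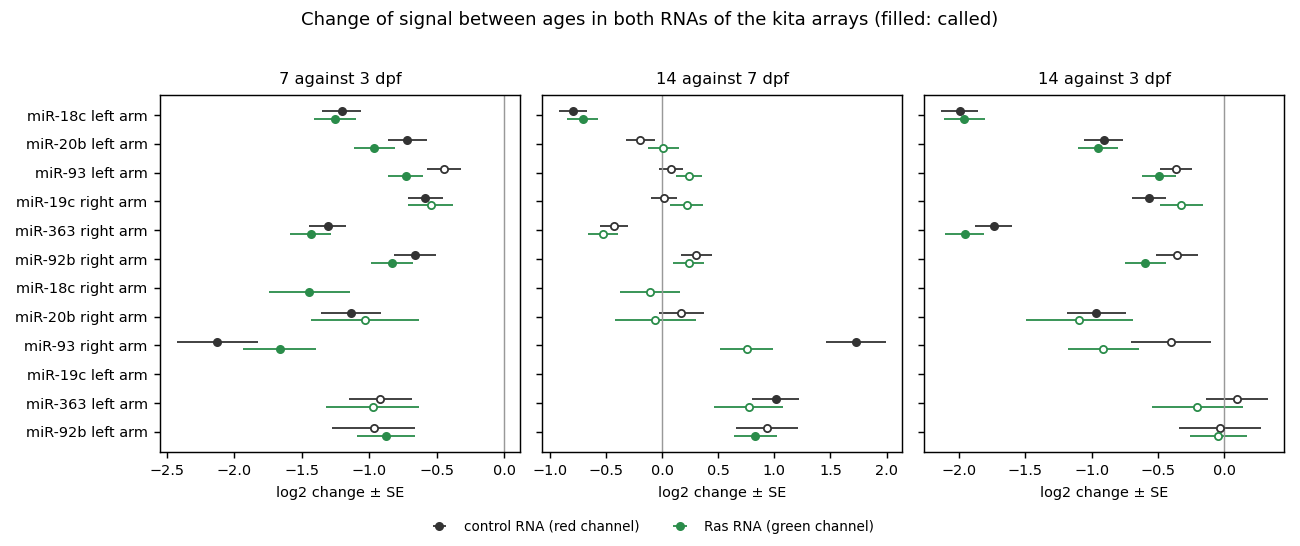
Change of signal between ages (log2 units, horizontal axis) with its SE for each group probe tested, in control RNA (dark) and kita:Ras RNA (green), with filled points where limma's call was met. From 3 to 14 dpf miR-18c_l lies at -2.0 in control RNA and -1.96 in Ras RNA, and miR-93_r from 7 to 14 dpf lies at 1.73 and 0.75. miR-19c_l was not tested.

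Other families changed by more or less than the group on the same arrays. The miR-430 family, which clears maternal messenger RNA in the zebrafish embryo and shares the letters AAGUGC with the miR-17 seed, had 30 of 35 probes called lower at 7 dpf (median -3.81) and 31 of 35 at 14 dpf (median -4.65). The let-7 family, known to rise as animals mature, had 18 of 30 probes called higher and 0 lower at 14 dpf (median 0.64). The miR-130, miR-301 and miR-454 probes, which share GUGCAA with miR-19, had 3 of 17 called lower at 14 dpf (median -0.12). The guide arms of the miR-17-92 group had 4 of 6 called lower at 14 dpf (median -0.74). Of all known probes tested, 27.5% were called lower at 7 dpf, and 18.4% were called lower and 26.9% higher at 14 dpf. Probes of a list can share a sequence, so these counts are not of separate miRNAs. The medians are descriptions, and no test of one list against another was made.

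Tissue markers changed with age as well in the control RNA. Of all known probes tested, 27.5% were called lower and 15.6% higher at 7 dpf, and 18.4% and 26.9% at 14 dpf. Brain markers were called lower for 14 of 22 probes at 7 dpf and 11 of 22 at 14 dpf, with summed levels from 6.29 to 6.76 at 3 dpf and from 5.71 to 5.88 at 14 dpf. Erythroid markers (miR-144, miR-451) were called lower for 4 of 4 and 3 of 4 probes, with summed levels from -0.27 to 1.36 at 3 dpf and from 0.01 to 0.43 at 14 dpf. White blood cell markers were called higher for 5 of 6 and 5 of 7 probes tested, and the 2 liver probes (miR-122) were called higher at both ages. All brain and erythroid probes were above background on at least 1 array of each age. The parts of these tissues in the decline of the miR-17-92 guides were not tested.

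Adult fin was compared with 3 dpf larvae on slide 2, a contrast in which tissue and age cannot be told apart. All 8 group probes tested were called lower in fin, where 56.8% of 405 known probes were called lower and 21.5% higher. Of the 8, miR-20b_r entered this test through its larval signal alone. The median of all known probes moved by -1.53 on this scale and by -0.20 when the 75th percentile was taken over all known probes. Changes are therefore given relative to that median as well.

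miR-18c_l and miR-363_r stood far below the rest. miR-18c_l was at 1.00 and 0.65 in larvae and at -6.63, -6.76 and -6.63 in fin, a change of -7.50 (SE 0.17), or -5.97 relative to the median of known probes. miR-363_r was at -0.77 and -0.85 in larvae and at -7.27, -7.10 and -7.45 in fin (-6.46, SE 0.17, or -4.93 relative to the median), and the fin of replicate 3 was not above background. They were also the guides with the largest changes between 3 and 14 dpf. In all alternatives that gave a value both kept the fin call. The changes ranged from -8.57 to -5.24 for miR-18c_l and from -7.22 to -3.63 for miR-363_r. The fin signal and the adult melanoma ratio share the same control RNA.

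The other guides fell by less. miR-20b_l went from 1.54 and 1.2 to -0.88, -0.94 and -1.03 (-2.33, SE 0.17, or -0.80 relative to the median). miR-93_l went from 0.16 and 0.30 to -1.96, -1.97 and -1.99 (-2.21, SE 0.14, or -0.68 relative to the median). For both, the fins lay more than 1 log2 unit below the larvae. miR-19c_r (-1.56, SE 0.17) and miR-92b_r (-1.43, SE 0.20) moved as the median of known probes did, at -0.03 and 0.10 relative to it. With the 75th percentile over all known probes, their changes were -0.20 and -0.06 and were not called, and with quantile normalization miR-92b_r was higher in fin (1.05). Of the passenger arms, miR-93_r fell by 3.09 (SE 0.19), or -1.57 relative to the median. Its change ranged from -3.22 to -0.56 over 17 alternatives. The call was lost in 2 of them, with quantile normalization and with normexp, loess and Aquantile. miR-20b_r, above background in 0 of 3 fins, was at least 8.76-fold lower on this scale. Its change of -1.60 relative to the median is a bound as well. Across 16 alternatives its change ranged from -3.86 to -0.47. With normexp, loess and Aquantile it was not called (limma adjusted p = 0.1545).

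In the same contrast all 26 miR-430 probes tested were called lower (median -7.58) and 18 of 22 let-7 probes were called higher (median 2.85). miR-18c_l thus lay close to the miR-430 median, and the miR-19 and miR-92b guides lay near the median of all known probes.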

How the data were processed

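The labels gave groups, replicate numbers and dyes. Per the file headers, the authors scanned the arrays and extracted them with Agilent Feature Extraction (versions 9.5 and 9.5.3.1), which subtracted background and normalized the dyes within each array. The deposited intensities of each channel are linear scanner units after these steps. The deposited log10 ratio is red over green; the value table of the series holds the same log10 ratios, with no further centring. Here the sign was turned and the ratio put on the log2 scale (Ras over control), the 2 spots of each probe were averaged after removal of any marked as outliers.

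Testing a ratio required at least 0.5 of a probe's spots well above background in 1 channel or both, on most arrays of the comparison. For the control signal the same share was required in the control channel, on most arrays of at least 1 of the 2 ages. A probe could thus enter through the age at which it was bright. The two-sided test of each group mean against 0 used limma (version 3.58.1, R 4.3.3), with 16 larval arrays in 1 fit and the 3 adult arrays in another. The variance prior came from known and predicted probes tested, and Benjamini-Hochberg adjustment ran over the known probes tested. A call needed an adjusted p below 0.01 and a linear fold above 1.2. The study's fold limit was on the log2 scale and so stricter, and its ratio error model was not used. Ages and models were compared with limma's F test. The control signal was scaled to the 75th percentile of each array, then floored. Tables were handled with Python 3.11.15, numpy 2.4.6, pandas 2.3.3 and matplotlib 3.10.9. The fits of group means and of ages were tested on simulated data, but not the F tests or the steps before the fits.

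Probes with values on every array are those called in a Ras or larval age comparison, plus the guide of each seed family. The members, the lists and the tests were chosen with earlier results of these data known. Alternatives covered normalization, filters, thresholds, slide and replicate blocks and single arrays left out. A variance prior from known probes alone was added after seeing the data. Sequences come from the probes and gene neighborhoods from RefSeq.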

Additional observations from a re-analysis of the deposited data

Results flagged for a closer look

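Each of the 12 group probes was checked for a single distant array among the 4 arrays of kita:Ras at 3 dpf, and 2 probes had one. Chance gives about 1 in 20 for a single check, but the 12 checks share the same 4 arrays and are not independent. The kita:Ras 3 dpf array of replicate 1 stood above the other 3 for miR-20b_l, at a log2 ratio of 0.21. The kita:Ras 3 dpf array of replicate 4, on the dim slide 2, stood below the other 3 for miR-93_r, at -1.22.

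In some pairs of groups every adult melanoma array lay below 0 and every larval array above 0, and these differences were not tested. For miR-18c_l the mean of adult melanoma minus that of kita:Ras at 7 dpf was -1.14. For miR-19c_r it was -0.41 against kita:Ras at 7 dpf and -0.50 against 14 dpf. For miR-20b_l it was -0.38 against kita:Ras at 3 dpf, -0.42 against HS-Ras and -0.40 against kita:Ras at 14 dpf. For miR-93_r it was -1.06 against HS-Ras.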

How the results depend on the processing

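The 26 calls of single group probes were recomputed under the alternatives, giving 575 values, of which 481 kept direction and call, 92 kept direction without the call and 2 reversed (miR-92b_r with quantile normalization, 0.17 from 3 to 7 dpf and 1.05 in adult fin). Calls in zic:Ras, HS-Ras and kita:Ras at 7 dpf and both F tests stayed at 0 under all alternatives run. In kita:Ras at 3 dpf, 1 probe was called with an unadjusted p below 0.01 (10.4% of known probes tested) and 1 with an adjusted p below 0.05 (7.03%). At 14 dpf the 2 calls became 1 with normexp and loess (20.6% of known probes tested) and 1 with both channels above background (18.2%). They became 0 when fitted alone (0.0%) and 0 to 1 without single arrays. In adult melanoma the 1 call became 0 without a filter on dim probes, 0 with both channels above background and 0 with a trended robust prior. It became 3 with an adjusted p below 0.05, where 41.9% of 346 known probes were called. With all 19 arrays in 1 fit it became 4, where 62.4% of them were called, and without single arrays 0 to 1.

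For the control signal from 3 to 7 dpf, the 7 calls became 11 without a filter, 11 on slide 1 alone, 3 with zic:Ras controls added and no slide block and 3 to 11 without single arrays. Of all known probes tested, 43.0% were called in the main fit, in either direction. The share was 46.7% without a filter, 52.0% on slide 1 alone and 23.1% with zic:Ras controls added and no slide block. From 7 to 14 dpf the 3 calls became 5 with an unadjusted p, 5 with an adjusted p below 0.05, 1 without the slide block, 0 with zic:Ras controls added and no slide block, 1 with the replicate block beside the slide block, and 2 to 3 without single arrays. For these 5 settings the share of all known probes called, against 31.7% in the main fit, was 41.2%, 50.4%, 14.7%, 6.18% and 10.6%. From 3 to 14 dpf the 5 calls became 9 on slide 1 alone, 3 without the slide block, 3 with zic:Ras controls added and no slide block and 3 to 8 without single arrays. The share of all known probes called was 45.3% in the main fit, 48.6% on slide 1 alone, 28.1% without the block and 23.5% with these controls. For adult fin the 8 calls became 5 with normexp, loess and Aquantile (50.9% of known probes tested, against 78.3% in the main fit), and 7 to 8 without single arrays. The causes were not tested.

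With the replicate number as a block, 0 group probes were called at 3 and 7 dpf and by the F tests, 2 at 14 dpf, 7 from 3 to 7 dpf and 5 from 3 to 14 dpf. Of all known probes tested, 17.6% were called at 14 dpf, 33.4% from 3 to 7 dpf and 38.6% from 3 to 14 dpf. Of 30 pairs of arrays with the same number, 9 had deviations of the log2 ratio correlated above 0.1 (from -0.37 to 0.26), among them all 3 pairs of kita:Ras 3 dpf with 14 dpf (0.17 to 0.22). No paired fit was possible for the adult arrays, a single group, and 11 combinations gave no value because the probe was too dim. Dim signal on slide 2 and in the passenger arms limits these results.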
